A study of Homo sapiens with 9 samples.

Results

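The genes described here encode the enzymes that methylate lysine 4 of histone H3 (H3K4) and the proteins bound to them. The 9 members were KMT2A, KMT2C, KMT2D, KDM6A, SETD1A, SETD1B, WDR5, MEN1 and NCOA6, taken by symbol from 25680 gene symbols in the count files, and each was represented by the RefSeq transcript row with the highest total count. All 9 were found, and all 9 were among the 14199 genes that passed the filter on low counts. RNA sequencing had been performed on SKNO-1 cells, an established human acute myeloid leukaemia line that carries the AML1-ETO (RUNX1-RUNX1T1) fusion, so that every sample shares the fusion. The 3 groups were a control named EV and cells with 1 of 2 short hairpin RNAs (shRNAs) against ASXL2, named SH2 and SH3. The labels do not explain EV, and the study speaks of a control shRNA without using that name. ASXL2 encodes a chromatin protein of the Additional sex combs family. Each group had 3 samples, numbered 1, 13 and 25, which the study calls biological triplicates without saying what the numbers mark, and no time after transduction is given in the labels. The comparison asked whether transcripts of the H3K4 methyltransferase complexes differed after ASXL2 knockdown in 1 leukaemia line.

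In mammals the H3K4 methyltransferases work as multi-protein machines built on a common core. SETD1A and SETD1B place most of the trimethyl mark at active promoters, KMT2A acts with menin (the product of MEN1) at a smaller set of promoters that includes the HOXA cluster, and KMT2C and KMT2D place the monomethyl mark at enhancers. WDR5 belongs to the core shared by all of these enzymes, and KDM6A, which removes methyl groups from lysine 27 of histone H3, and the coactivator NCOA6 belong to the KMT2C and KMT2D complexes. KMT2A is also the gene rearranged in a well-known class of acute leukaemia.

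Library totals were 27714431 to 35406063 counts with 1 row per gene, so a level of 0.0847 to 0.108 CPM (counts scaled to the library size) stands for 3 counts. ASXL2 was measured at 67.9, 67.9 and 74.7 CPM in EV, at 30.4, 36.2 and 36.2 CPM in SH2 and at 26.9, 29.1 and 41.1 CPM in SH3. Relative to the EV sample of the same number, ASXL2 stood at 48.8% ± 4.26 in SH2 and 45.8% ± 8.13 in SH3 (SD, n = 3). Of 9 myeloid blast markers, 8 passed the filter, and CD34 did not (0.068 to 0.309 CPM). Their summed level was 8253 to 10584 CPM in EV, 7384 to 11489 in SH2 and 8481 to 10972 in SH3. Of 10 markers of other cell types, 1 (PECAM1) passed, 3 (CD3E, MS4A1 and COL1A2) were at 0 in all 9 libraries, and the whole list summed to 1.78 to 4.36 CPM. In these bulk samples a smaller share of cells with a transcript and less transcript per cell cannot be told apart.

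With the replicate number left out of the model, none of the 9 members passed an adjusted p of 0.05 (edgeR quasi-likelihood test, Benjamini-Hochberg adjustment over all genes tested) in either knockdown or in their mean, and neither did any of the other genes (0% of 14199). At an unadjusted p under 0.05 the mean of both shRNAs gave 591 lower and 351 higher genes, and DESeq2 called 56 genes. Samples of the same number deviated together from their group means, and a second fit took the number as a block (the paired fit). In the paired fit of both shRNAs averaged against EV, KMT2C fell and no other member passed the threshold, against a background of 0.845% of all tested genes called lower. The transcripts of KMT2A, KMT2C and KMT2D had the lowest fitted ratios to EV, at 69.9%, 65.4% and 64.3%. Those of WDR5 and MEN1 were at 102% and 99.9%.

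**Figure D1:**
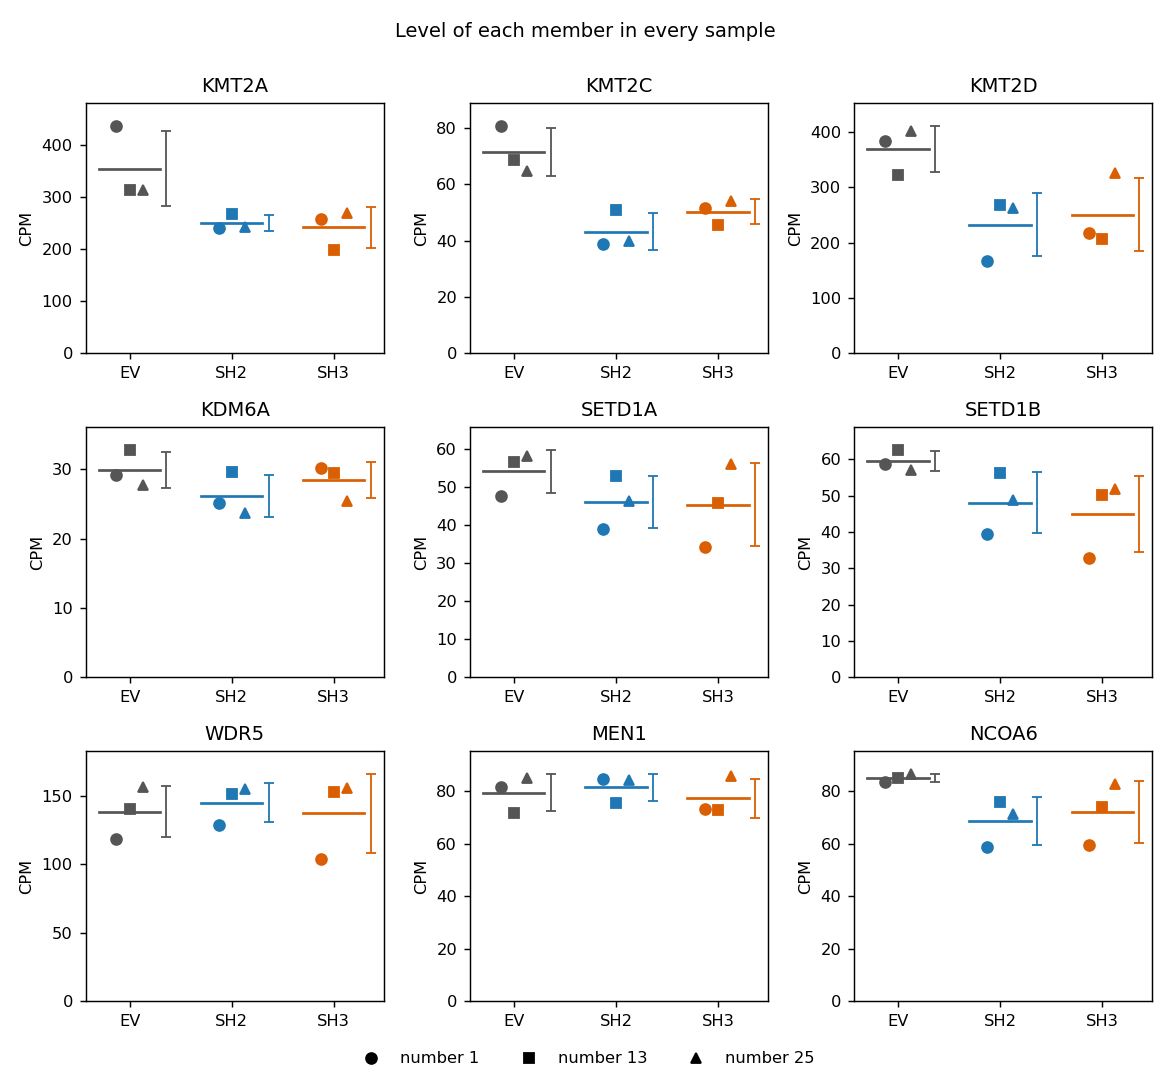
Level (CPM) of each of the 9 genes in every sample of EV (grey), SH2 (blue) and SH3 (orange), with symbols for the sample number, a horizontal line at the group mean and a bar for the SD (n = 3). The 6 knockdown samples of KMT2A, KMT2C, SETD1B and NCOA6 all lie below the 3 EV samples, while those of WDR5 and MEN1 overlap them.

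The 3 members of the KMT2 family are all encoded by very long transcripts. KMT2A (RefSeq NM_001197104) lies on the forward strand at chr11:118307171-118397547 (GRCh37, the assembly also called hg19), KMT2C (NM_170606) on the reverse strand at chr7:151832007-152133729 and KMT2D (NM_003482) on the reverse strand at chr12:49412758-49454577. Their canonical GENCODE transcripts span 16600, 16860 and 20635 nt, at the 99.6th, 99.6th and 99.8th percentile of the 12655 tested genes with a transcript length. Because these 3 genes had the lowest ratios, the 250 bases before their annotated start are shown (RefSeq, GRCh38.p14, 5′ to 3′ on the strand of the gene), with GC boxes, GGGCGG or CCGCCC, in capitals.
KMT2A, chr11:118436242-118436491, forward strand: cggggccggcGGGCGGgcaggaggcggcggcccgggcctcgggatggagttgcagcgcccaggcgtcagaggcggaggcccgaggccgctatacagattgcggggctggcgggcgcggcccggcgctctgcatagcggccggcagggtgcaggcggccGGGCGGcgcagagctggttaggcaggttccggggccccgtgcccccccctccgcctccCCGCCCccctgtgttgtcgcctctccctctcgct
KMT2C, chr7:152436004-152436253, reverse strand: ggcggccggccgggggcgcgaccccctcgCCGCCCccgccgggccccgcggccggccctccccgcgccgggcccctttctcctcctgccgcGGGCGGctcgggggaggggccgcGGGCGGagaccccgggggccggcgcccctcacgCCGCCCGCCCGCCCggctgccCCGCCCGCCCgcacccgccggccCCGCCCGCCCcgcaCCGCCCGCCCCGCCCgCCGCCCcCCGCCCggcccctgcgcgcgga
KMT2D, chr12:49060795-49061044, reverse strand: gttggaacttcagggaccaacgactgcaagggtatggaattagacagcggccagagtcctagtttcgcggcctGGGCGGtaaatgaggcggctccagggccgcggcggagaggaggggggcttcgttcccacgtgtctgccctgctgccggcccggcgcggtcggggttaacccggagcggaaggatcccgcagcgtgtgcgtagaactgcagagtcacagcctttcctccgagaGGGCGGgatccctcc

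The KMT2C window held 15 GC boxes, overlapping ones included, the KMT2A window 3 and the KMT2D window 2. A GC box was present in 42.6% of the 35116 promoter windows of this length. The windows held 48, 31 and 23 CpG dinucleotides for KMT2C, KMT2A and KMT2D, against a median of 11 over all windows, and their GC content was 92.0%, 78.4% and 65.6% against a median of 58.0%. Neither TGTGGT nor its complement ACCACA, the core bound by RUNX proteins (present in 10.98% of windows), was found in these 3 windows. The same held for CCGGAAG and CTTCCGG, an extended ETS motif (8.52% of windows). Both strands were searched for these sequences. The shorter ETS core GGAA was not counted, and it does occur in the KMT2D window shown. A match or its absence says nothing here about binding.

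KMT2C, an enzyme of enhancer H3K4 monomethylation, was the member called in the paired fit. Its level was 80.7, 68.6 and 64.5 CPM in the EV samples numbered 1, 13 and 25, 38.9, 50.8 and 39.7 CPM in SH2, and 51.5, 45.5 and 53.9 CPM in SH3. All 6 knockdown samples were below all 3 EV samples. The ratio to the EV sample of the same number averaged 61.2% ± 12.9 in SH2 and 71.2% ± 10.8 in SH3 (SD, n = 3), with the lowest ratio, 48.2%, in SH2 number 1. The log2 fold change of both shRNAs against EV was −0.61 (edgeR adjusted p = 0.623, SE 0.11) in the edgeR fit without the block and −0.61 (edgeR adjusted p = 0.0376, SE 0.10) in the paired edgeR fit. With SH2 alone the paired edgeR value was −0.72 (edgeR adjusted p = 0.0428, SE 0.12), against a background of 0.183% of genes called lower. With SH3 alone it was −0.50 (edgeR adjusted p = 0.0887, SE 0.12 in edgeR), and no member passed (background 0.232% lower). Over all 9 omissions of 1 sample in the paired fit, the fold change for the mean lay between −0.70 and −0.49 (edgeR adjusted p 0.0039 to 0.217). The call for the mean was lost when any EV sample or SH2 number 1 or 25 was left out. The call for SH2 alone was lost in the same 5 omissions and without SH3 number 25. Parts of KMT2C are duplicated elsewhere in the genome at the BAGE loci, so its count is uncertain to that extent. The BAGE genes themselves held at most 1 count in any library.

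KMT2D, a paralogue of KMT2C that also acts at enhancers, varied more between samples. Its level was 384.0, 321.8 and 401.5 CPM in EV, 166.1, 267.1 and 261.9 CPM in SH2, and 218.0, 207.3 and 326.3 CPM in SH3. SH3 number 25 exceeded EV number 13, so that the groups overlapped, although each of the 6 knockdown samples was below the EV sample of its own number. The ratio averaged 63.8% ± 19.9 in SH2 and 67.5% ± 12.5 in SH3, and SH2 number 1 again had the lowest, 43.3%. Both shRNAs against EV gave a log2 fold change of −0.62 (edgeR adjusted p = 0.623, SE 0.19) without the block and −0.64 (edgeR adjusted p = 0.0505, SE 0.13) in the paired fit, which misses the threshold. It passed when SH2 number 13 (−0.76, edgeR adjusted p = 0.0425) or SH3 number 1 (−0.64, edgeR adjusted p = 0.0103) was left out. A lncRNA on the opposite strand, DDN-AS1, shares 264 of the 20635 exonic bases, and an unnamed gene model on the same strand shares 638. The study's RNA-seq methods describe unstranded libraries, and in such libraries reads of opposite strands cannot be told apart. The same holds for short exonic overlaps of KMT2A (181 bases), KMT2C (238), NCOA6 (207) and SETD1A (35) with genes on the opposite strand.

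KMT2A, the promoter enzyme partnered by menin, was measured at 437.6, 313.0 and 314.1 CPM in EV. The SH2 samples stood at 241.2, 267.3 and 242.6 CPM and the SH3 samples at 258.6, 197.7 and 270.6 CPM, all 6 below the lowest EV sample. The highest EV value was that of number 1, and the ratios of both knockdown samples of that number, 55.1% and 59.1%, were below those of the other numbers, which ranged from 63.2% to 86.1%. On average KMT2A stood at 72.6% ± 15.7 of EV in SH2 and 69.5% ± 14.6 in SH3. The log2 fold change of the mean was −0.53 (edgeR adjusted p = 0.623, SE 0.14) without the block and −0.52 (edgeR adjusted p = 0.0572, SE 0.11) with it, and it passed the threshold only without SH3 number 1 (−0.51, edgeR adjusted p = 0.0127), among the 9 omissions of 1 sample. Its 2 RefSeq rows held identical counts, so that they could not be told apart. An unnamed gene model on the same strand shares 3654 of its 16600 exonic bases, and reads there cannot be assigned to one of them.

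SETD1A and SETD1B, the paralogous promoter H3K4 trimethylating enzymes, differed less. SETD1B (NM_015048, chr12:122241915-122270562, forward strand) was at 58.8, 62.7 and 57.1 CPM in EV, 39.4, 56.1 and 48.7 CPM in SH2, and 32.9, 50.2 and 51.8 CPM in SH3. All 6 knockdown samples were below the EV samples, and the low values were those of number 1. Its log2 fold change was −0.36 (edgeR adjusted p = 0.744, SE 0.15) without the block and −0.38 (edgeR adjusted p = 0.0811, SE 0.10) in the paired fit. Leaving out 1 sample at a time gave −0.48 to −0.21 in the paired fit, the value nearest 0 being that without EV number 1 (edgeR adjusted p = 0.468), and the threshold was passed only without SH3 number 1 (−0.31, edgeR adjusted p = 0.0210). SETD1A (NM_014712, chr16:30968615-30995985, forward strand) was at 47.6, 56.5 and 58.3 CPM in EV, 39.1, 52.9 and 46.3 CPM in SH2, and 34.2, 45.8 and 56.1 CPM in SH3. The groups overlapped, while every knockdown sample was below its same-numbered EV sample. Its paired log2 fold change was −0.25 (edgeR adjusted p = 0.131, SE 0.08).

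The subunits of the enhancer complexes showed a graded picture. NCOA6 (NM_014071, chr20:33276901-33413454, reverse strand), a nuclear receptor coactivator, was at 83.7, 85.0 and 86.8 CPM in EV, 58.6, 76.1 and 71.4 CPM in SH2, and 59.6, 73.9 and 82.8 CPM in SH3. No knockdown sample reached the lowest EV sample. The paired log2 fold change was −0.29 (edgeR adjusted p = 0.0845, SE 0.07). Over the 9 omissions of 1 sample it lay between −0.35 and −0.18, with −0.18 without EV number 1 (edgeR adjusted p = 0.486), and it passed only without SH3 number 1 (−0.25, edgeR adjusted p = 0.0281). The second RefSeq row, NM_001242539, carried fewer reads (46.2 ± 1.71 CPM in EV against 85.2 ± 1.59 for the main row, SD, n = 3) and gave −0.37 (edgeR adjusted p = 0.0873, SE 0.10, all rows tested). KDM6A (NM_001291415, chrX:44732434-44972024, forward strand), the H3K27 demethylase, was at 29.2, 32.9 and 27.7 CPM in EV, 25.2, 29.6 and 23.8 CPM in SH2, and 30.3, 29.5 and 25.5 CPM in SH3. The groups overlapped and 5 of 6 pairs were below EV, with SH3 number 1 at 104% of its EV sample. Its paired log2 fold change was −0.13 (edgeR adjusted p = 0.282, SE 0.07).

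WDR5 and MEN1 differed from EV by less than their standard errors. WDR5 (NM_017588, chr9:137000487-137025090, forward strand), the core adaptor that docks the catalytic subunit, was at 118.9, 140.4 and 156.4 CPM in EV, 128.6, 151.3 and 155.1 CPM in SH2, and 103.7, 152.5 and 155.5 CPM in SH3. The 3 samples numbered 1 were the lowest of their groups. MEN1 (NM_130802, chr11:64570982-64578766, reverse strand), which encodes menin, was at 81.6, 71.6 and 85.1 CPM in EV, 84.6, 75.3 and 84.3 CPM in SH2, and 73.0, 72.9 and 85.8 CPM in SH3. Of the 6 pairs, 3 were below EV for WDR5 and 2 for MEN1. The paired log2 fold changes were 0.02 (edgeR adjusted p = 0.884, SE 0.07) and −0.0011 (edgeR adjusted p = 0.994, SE 0.06).

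**Figure D2:**
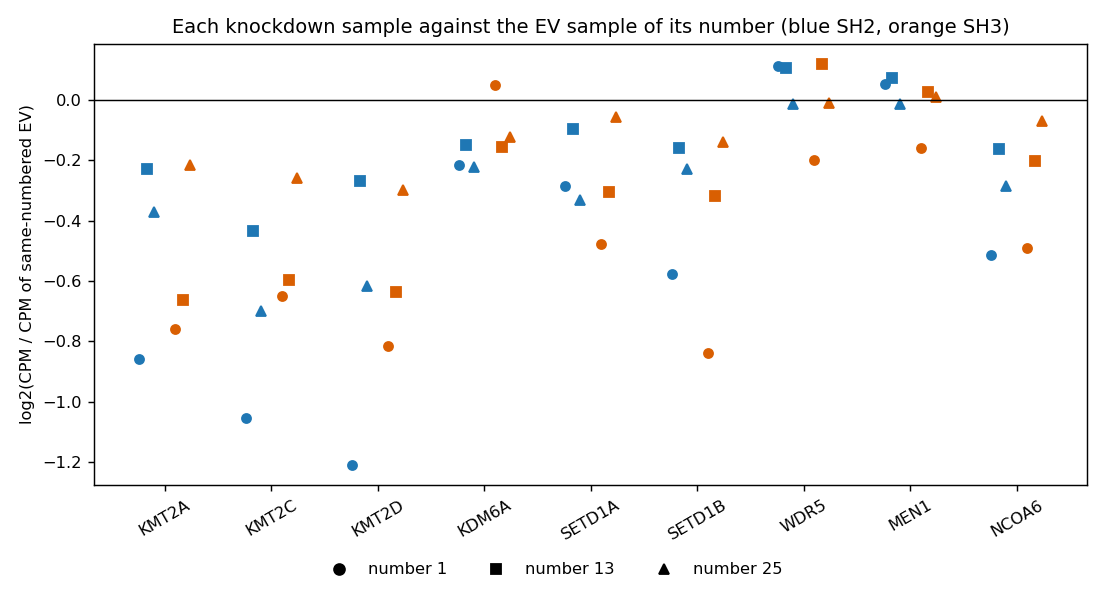
The log2 ratio of each SH2 (blue) and SH3 (orange) sample to the EV sample of the same number, for each of the 9 genes, with symbols for the number and a line at 0 (no difference). The 18 points of KMT2A, KMT2C and KMT2D all lie below 0, and those of number 1 reach the lowest values, while the points of WDR5 and MEN1 lie on both sides of 0.

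Counted over the group, 6 of 9 members (KMT2A, KMT2C, KMT2D, SETD1A, SETD1B and NCOA6) were below the same-numbered EV sample in all 6 pairs, against 11.6% of all tested genes. All 6 knockdown samples were below all 3 EV samples for 4 of 9 (KMT2A, KMT2C, SETD1B and NCOA6), against 2.61% of tested genes. Both shares were higher among genes with long transcripts, as given below by length class. At an unadjusted p under 0.05 without the block, 5 of 9 were lower (KMT2A, KMT2C, KMT2D, SETD1B and NCOA6) and 0 were higher, against 4.16% and 2.47% of tested genes. The median log2 fold change of the 9 was −0.28 without the block and −0.29 in the paired fit, and that of all tested genes was 0.01 in both. Median fold changes were also lower in classes of longer transcripts, as given below. The counts at an unadjusted p were not split by length. Both shRNAs were compared with the same 3 EV samples, so their values are not independent. No member passed the threshold between SH3 and SH2 in either fit (background 0% and 0.106%). The largest fitted difference was that of KMT2C, 0.22 higher on the log2 scale in SH3 (edgeR adjusted p = 0.492, SE 0.12 in the paired fit). This difference moved with single samples, to 0.10 without SH2 number 1, 0.11 without SH3 number 25, 0.34 without SH3 number 13 and 0.41 without SH2 number 13, and no omission brought it past the threshold.

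The choice of tool also decided the calls. DESeq2 without the block called KMT2C lower for SH2 (adjusted p = 0.0032, background 0.134%) and for the mean of both shRNAs (adjusted p = 0.0031, background 0.254%), and no member for SH3 (background 0.113%). With the block, DESeq2 called 5 of 9 members lower for the mean (KMT2A, KMT2C, KMT2D, SETD1B and NCOA6, background 3.08%), 3 for SH2 (KMT2A, KMT2C and NCOA6, background 1.99%) and 3 for SH3 (KMT2A, KMT2C and SETD1B, background 2.04%). KMT2C was called in every DESeq2 fit that called a member. These backgrounds cover all tested genes and were not split by transcript length.

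**Figure D3:**
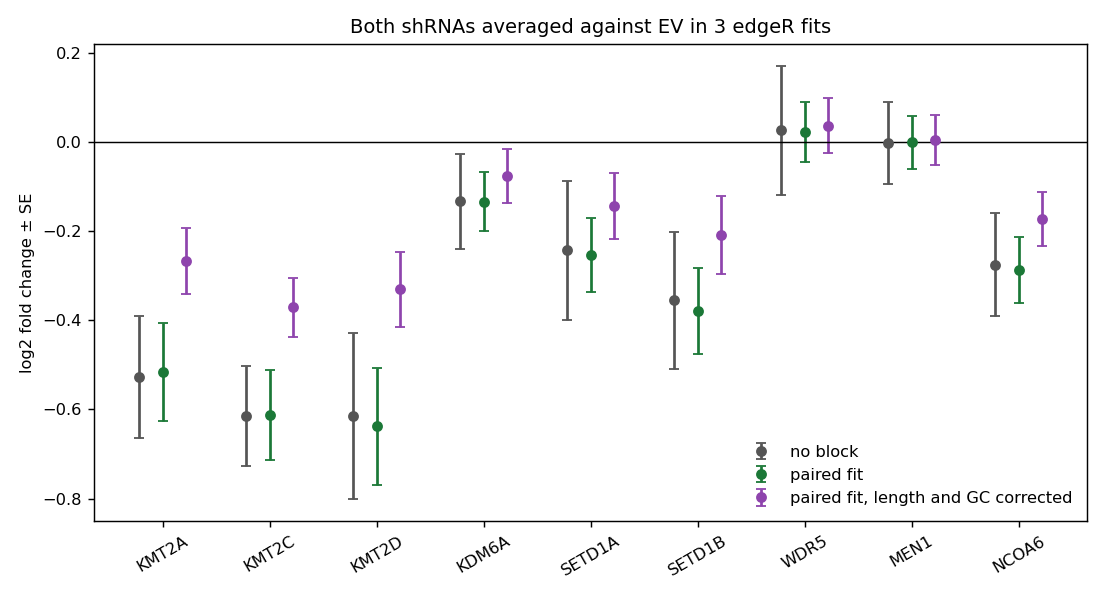
Log2 fold change of both shRNAs averaged against EV (points) with its SE (bars) for the 9 genes, in the fit without the block (grey), the paired fit (green) and the paired fit corrected for transcript length and GC content (purple). KMT2A, KMT2C and KMT2D are lowest in all 3 fits and lie closer to 0 after the correction, and WDR5 and MEN1 lie at 0.

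Transcript length moved with the fold change across the transcriptome. The median paired log2 fold change was 0.09 in the 3576 genes shorter than 2000 nt, 0.03 in the 4484 of 2000 to 4000 nt, −0.05 in the 3617 of 4000 to 8000 nt, −0.15 in the 737 of 8000 to 12000 nt and −0.22 in the 241 of 12000 nt or more. In this longest class, to which KMT2A, KMT2C and KMT2D belong, 44.8% of genes were below EV in all 6 pairs and 15.4% had all knockdown samples below all EV samples. These shares were 37.2% and 11.4% in the class of 8000 to 12000 nt, to which SETD1B belongs. In the class of 4000 to 8000 nt, with NCOA6, KDM6A and SETD1A, they were 18.8% and 3.87%. Of the 241 genes in the longest class, 27 had a lower paired fold change than KMT2A, 14 than KMT2C and 10 than KMT2D. Within the group, the fold changes of SETD1B (8557 nt), NCOA6 (7083 nt), KDM6A (6094 nt) and SETD1A (5991 nt) lay between those of the KMT2 genes and of the shorter WDR5 (3157 nt) and MEN1 (2712 nt). ASXL2 itself is 12849 nt long. After a correction of the paired fit for length and GC content, KMT2C stood at −0.37 (edgeR adjusted p = 0.0695, SE 0.07), KMT2D at −0.33 (edgeR adjusted p = 0.128, SE 0.08) and KMT2A at −0.27 (edgeR adjusted p = 0.151, SE 0.07). No member passed the threshold there, and 0.142% of genes did in either direction, while ASXL2 stayed at −0.91 (edgeR adjusted p = 0.0021). The part of transcript length in the uncorrected values was not tested further.

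**Figure D4:**
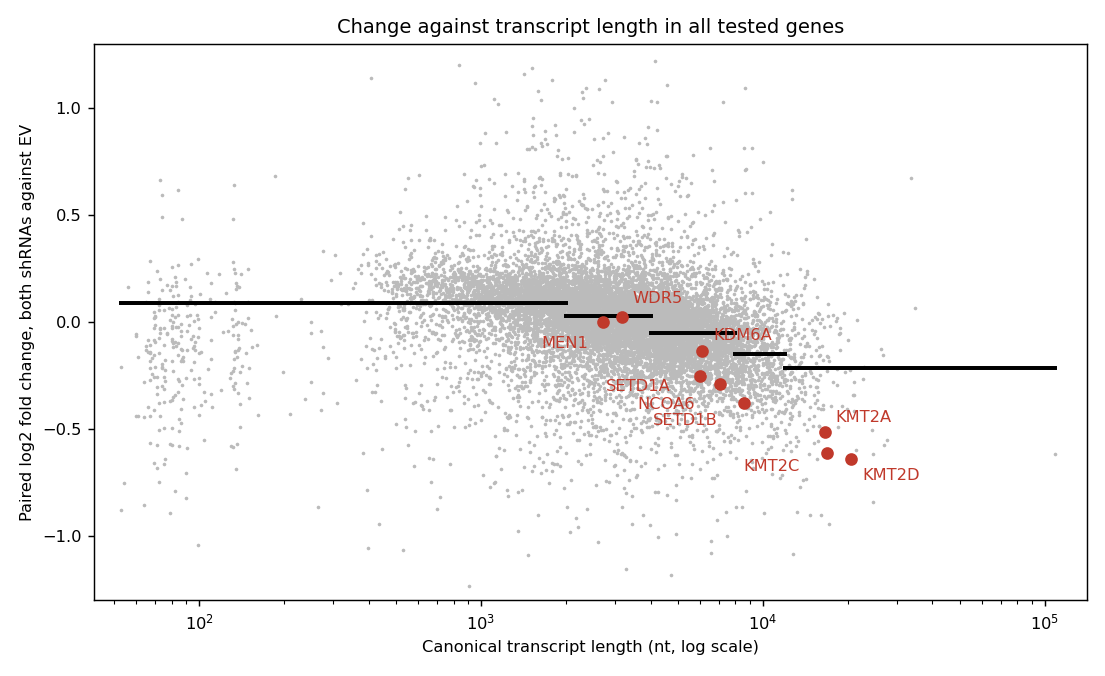
Paired log2 fold change of both shRNAs against EV for 12655 tested genes (grey points, of which 9 lie outside the plotted range) against the length of the canonical transcript (nt, log axis), with black lines at the median of each length class and the 9 members in red. The class medians run from 0.09 in the shortest class to −0.22 in the longest, and KMT2A, KMT2C and KMT2D lie below the median of the longest class.

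Many genes, members included, also differed by sample number. In the samples numbered 1 against those numbered 13 and 25, within groups, 4 of 9 members were lower and 0 higher, against 22.2% and 24.1% of all tested genes. These were WDR5 (log2 difference −0.38, SE 0.07, edgeR adjusted p = 0.0021), SETD1A (−0.39, edgeR adjusted p = 0.0046, SE 0.09), SETD1B (−0.34, edgeR adjusted p = 0.0169, SE 0.10) and NCOA6 (−0.25, edgeR adjusted p = 0.0214, SE 0.08). The call of SETD1B was lost without SH2 number 1 (−0.31, edgeR adjusted p = 0.0765) and without SH3 number 1 (−0.21, edgeR adjusted p = 0.0778), and without EV number 1 the difference was −0.52. That of NCOA6 was lost without SH2 number 1 (−0.21, edgeR adjusted p = 0.0983), SH3 number 1 (−0.18, edgeR adjusted p = 0.0876) or SH3 number 25 (−0.22, edgeR adjusted p = 0.0527). KMT2A was at 0.19 (edgeR adjusted p = 0.185, SE 0.11) and KMT2D at −0.27 (edgeR adjusted p = 0.125, SE 0.14). With only the samples numbered 13 and 25 in the paired fit, KMT2A (−0.36, edgeR adjusted p = 0.0398), KMT2C (−0.49, adjusted p = 0.0090) and KMT2D (−0.44, adjusted p = 0.0205) were each lower for the mean of both shRNAs, against a background of 2.06% of genes lower. With SH3 alone the same 3 genes were lower in this fit (background 1.75%), and with SH2 alone KMT2C was (background 1.45%). The fold changes of these 3 genes were smaller in size, and more of them passed, than with number 1 included. Leaving out SH3 number 1 alone also gave more calls, with 5 of 9 members (KMT2A, KMT2C, KMT2D, NCOA6 and SETD1B) called lower for the mean of both shRNAs (background 7.19%), 5 of 9 for SH2 (background 6.61%) and 0 of 9 for SH3, where 368 genes were called.

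Levels between genes can be compared only per length of transcript. In EV the order of CPM per kilobase was WDR5 (43.9 ± 5.96), MEN1 (29.3 ± 2.59), KMT2A (21.4 ± 4.31), KMT2D (17.9 ± 2.03), NCOA6 (12.0 ± 0.224), SETD1A (9.04 ± 0.953), SETD1B (6.96 ± 0.334), KDM6A (4.91 ± 0.432) and KMT2C (4.23 ± 0.500) (SD, n = 3). The EV samples of KMT2A and KMT2D overlapped, as did those of KDM6A and KMT2C, and the other neighbours in this order did not overlap. Among tested genes with a length, WDR5 was at the 86.0th percentile of this level and KMT2C at the 34.3rd. The other RefSeq rows of WDR5, MEN1 and KDM6A gave mean EV levels within 1 SD of the row used.

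All 17 listed core and complex-specific subunits were tested, and 0 passed an adjusted p of 0.05 in either fit. At an unadjusted p under 0.05 in the paired edgeR fit, 4 were lower and 1 higher (background 11% and 9.49%), and the median log2 fold change was −0.05. KMT2B, the closest relative of KMT2A (8485 nt), had a paired log2 fold change of −0.28 (edgeR adjusted p = 0.0834, SE 0.07), and DPY30, a small core subunit (688 nt), of 0.21 (edgeR adjusted p = 0.130, SE 0.07). The core scaffold proteins ASH2L and RBBP5 were at −0.0033 and −0.015. Over the whole list the paired values ran from −0.29 (HCFC1, edgeR adjusted p = 0.108) to 0.21 (DPY30), and 11 of 17 were below 0.

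A list of 8 other genes held known or proposed H3K4 methyltransferases and relatives, not all with established H3K4 activity. Of these, 6 were tested and none was called in either fit, with 2 lower at an unadjusted p under 0.05 in the paired edgeR fit (background 11%). ASH1L, a SET-domain enzyme with a transcript of 12037 nt, was at −0.38 (edgeR adjusted p = 0.0811, SE 0.10) and KMT2E, a relative of the KMT2 enzymes that is not thought to be catalytically active, at −0.18 (edgeR adjusted p = 0.196, SE 0.07) in the paired fit. The 7 genes of H3K4 demethylation gave no call either, and 2 were lower at an unadjusted p under 0.05 (background 11%). They were KDM5A, which removes trimethyl H3K4, at −0.28 (edgeR adjusted p = 0.0659, SE 0.06), and its X-linked paralogue KDM5C at −0.28 (edgeR adjusted p = 0.0728, SE 0.07). KDM6B, the other H3K27 demethylase, was at −0.12 (edgeR adjusted p = 0.617, SE 0.13).

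Of 17 leukaemia genes known to depend on KMT2A or menin, 12 were tested. HOXA7, HOXA9, HOXA10 and MEIS1, the classical targets, were at 0 counts in all 9 libraries, which allows up to 0.0847 to 0.108 CPM. MEF2C, a MADS-box transcription factor, was the 1 gene called in the paired fit, in which 0.845% of all tested genes were called lower (log2 fold change −0.56, SE 0.09, edgeR adjusted p = 0.0329), and it was not called after the length and GC correction (−0.49, adjusted p = 0.0761) or without the block (adjusted p = 0.847). CDK6, a cell cycle kinase, was at −0.35 (edgeR adjusted p = 0.0631, SE 0.08). The list had a median of −0.11 in the paired fit.

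Across the 9 samples, the tested genes with the pattern most like each member were found by the root mean square difference of centred log2 levels. They were MACF1 for KMT2A (0.064), LNPEP for KMT2C (0.089), C10orf12 for KMT2D (0.11), SON for SETD1A (0.046), ROCK2 for SETD1B (0.071), HTT for NCOA6 (0.043), GAB3 for KDM6A (0.058), CDC6 for WDR5 (0.031) and DTX2 for MEN1 (0.045). Among the other members, KMT2A and KMT2C were closest to each other (0.162, rank 58 of 14198 genes from KMT2A and 27 from KMT2C), and so were SETD1A and NCOA6 (0.098, ranks 78 and 97). The values share libraries and are given as a description.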

How the data were processed

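RNA was sequenced from 9 SKNO-1 samples. The deposited files hold whole-number counts per RefSeq transcript row (48104 rows), made by the authors per the labels with STAR, featureCounts, DESeq2 and hg19; versions and the use of DESeq2 are not given in the sources used here, and the study's methods name Cuffdiff and describe unstranded poly(A)-selected libraries, in a passage on sorted mouse cells. The protocol in the labels describes sorted bone marrow cells, which does not match the cell line. The row with the highest total per symbol was used. Genes were kept by edgeR's filter (at least 10 counts, total 15) and tested in edgeR 4.0.16 (R 4.3.3, TMM, quasi-likelihood F test, 6 residual degrees of freedom, all 9 samples). The paired fit added the replicate number (4 degrees of freedom). The numbers were taken to pair the samples because same-numbered samples correlated in their deviations from group means in every pair (9 pairs, r = 0.398 to 0.731, against −0.616 to 0.306 for different numbers). Deviations within a group sum to nothing, so positive values for the same number tend to make those for different numbers negative. The contrast between the 2 ranges is partly built in. P-values measure only the spread between these samples, which may be technical. Members of the lists and the tests were chosen with earlier results of these data known. Named genes were the 9 members, ASXL2, the 2 genes with the smallest p of each list for the mean contrast and the nearest gene to each member. The BAGE genes, DDN-AS1, ASH2L, RBBP5, HCFC1, CD34, PECAM1, CD3E, MS4A1, COL1A2 and the HOXA and MEIS1 genes were named after their values were seen. Lengths are those of canonical GENCODE v44lift37 transcripts, not of the counted rows. The correction for length and GC content was a loess fit (span 0.3) per library. DESeq2 1.42.0 was an alternative. Scripts were tested on simulated data. Promoter windows were found for KMT2A, KMT2C, KMT2D, KDM6A, SETD1A, WDR5 and MEN1.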

Additional observations from a re-analysis of the deposited data

How the results depend on the processing

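Other scalings, filters and the sum over RefSeq rows left the sides of the threshold as they were in the fit without the block. The replicate block raised the calls from 0 to 40 genes and 1 member (SH2 against EV), 59 genes (SH3), 156 genes and 1 member (mean) and 15 genes (SH3 against SH2), and without the block they were 0 genes and 0 members. With the block and the length and GC correction they were 6, 53, 18 and 13 genes, and 0 members. DESeq2 called 25 genes and 1 member (KMT2C), 26 genes, 56 genes and 1 member (KMT2C), and 11 genes. DESeq2 with the block called 374 genes and 3 members (KMT2A, KMT2C and NCOA6), 474 genes and 3 members (KMT2A, KMT2C and SETD1B), 622 genes and 5 members (KMT2A, KMT2C, KMT2D, SETD1B and NCOA6), and 152 genes. With only the samples numbered 13 and 25 and the block, added after seeing the data, the counts were 267 genes and 1 member (KMT2C), 341 genes and 3 members, 370 genes and 3 members, and 129 genes. With the block and only genes that have a length, also added later, SH3 gave 96 genes and the mean gave 2 members. NCOA6 in EV was at 46.2 CPM in its other RefSeq row.

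Leaving out 1 sample at a time in the paired fit, also added later, gave 0 to 1604 genes and 0 to 5 members for SH2, 1 to 368 genes for SH3, 2 to 1755 genes and 0 to 5 members for the mean, and 0 to 257 genes for SH3 against SH2. The highest counts against EV (1604, 368 and 1755) were those without SH3 number 1. Without the block the ranges were 0 to 1 genes for SH3 and 0 to 2 for the mean. For number 1 against 13 and 25 they were 4813 to 6282 genes and 2 to 5 members. The values near 0 changed sign. Without the block MEN1 ran from −0.071 to 0.053 and WDR5 from −0.073 to 0.127, and in the paired fit MEN1 ran from −0.026 to 0.027 and WDR5 from −0.023 to 0.065. MEN1 was at 0.0042 with the length and GC correction, and with only numbers 13 and 25 it gave 0.023 (no block) and 0.025 (paired). The causes were not tested. With all genes pooled, samples of a group differed by more than counting error (chi-square per degree of freedom 18.1 to 134). This need not hold for single members. In EV, NCOA6 (2500 to 3042 counts) had an SD of 1.59 CPM on 85.2, about the size of counting error. Knockdown and EV samples came within counting error of each other for NCOA6 (82.8 and 83.7 CPM) and SETD1B (56.1 and 57.1 CPM). The nearest samples of KMT2A and KMT2C were further apart.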
